A study of Rattus norvegicus with 6 samples.

Results

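The 10 genes described here, Hdac1 to Hdac10, encode the class I and class II histone deacetylases. They were chosen by exact symbol, though with earlier results of these data known, and all 10 have a row among the 18286 genes of the table. The cells were RBL-2H3, a rat basophilic leukemia line used as a model of mast cells, and the series asks whether their activation through IgE is inhibited by dihydrocoumarin (DHC), a lactone of sweet clover. There were 3 control libraries, whose treatment label is none, and 3 libraries from cells given DHC, without a stated dose or time. A protocol shared by all 6 samples has sensitization with 50 ng/ml anti-DNP IgE for 12 h and then 4 h of stimulation with the antigen DNP-HSA at 100 ng/ml. Whether the control cells also received IgE and antigen is not given beyond that shared text, so DHC was compared with control as labelled. Separate cultures are not stated for the 3 libraries of a group, so the p-values reflect a spread between libraries that may be technical only.

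Histone deacetylases remove acetyl groups from lysines, which on histone tails is associated with closed chromatin and lower transcription, and several also act on proteins outside the nucleus. Class I enzymes (Hdac1, Hdac2, Hdac3 and Hdac8) are mainly nuclear, and the first 3 work inside corepressor complexes. Class IIa enzymes (Hdac4, Hdac5, Hdac7 and Hdac9) have little activity of their own, bind MEF2 transcription factors and leave the nucleus on 14-3-3 proteins once kinases have phosphorylated them. Class IIb holds Hdac6, a cytoplasmic deacetylase of tubulin and HSP90, and Hdac10, which deacetylates polyamines. All of these use zinc, in contrast to the NAD-dependent sirtuins, of which dihydrocoumarin is a known inhibitor.

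The libraries held between 29084976 and 34170922 reads assigned to genes, and 3 reads correspond to 0.0878 to 0.103 RPM, that is, reads scaled to the library total, for which only counting error is considered. Of 10 mast cell markers 9 had a row, and 1 of them, Cma1, stayed below 1 RPKM (reads scaled to exon length and to the library total) in all libraries. The labels call the source peripheral blood, and of the listed B cell, neutrophil, erythroid and fibroblast markers with a row none reached 1 RPKM. The 4 macrophage markers, 3 of them below 1 RPKM throughout, summed to between 1.20 and 1.77 RPKM in control and between 1.56 and 2.40 in DHC libraries, and the 1 epithelial marker with a row to between 1.68 and 2.24 and between 2.02 and 2.46. Cd3e, a T cell receptor chain gene, averaged 34.6 RPKM in control and 41.8 in DHC libraries, while the other 3 T cell markers were below 1 RPKM. The mast cell markers summed to between 1020 and 1051 RPKM in control and between 705 and 731 in DHC libraries, but they did not move as one. Gata2 averaged 345 RPKM in control and 69.9 in DHC libraries, Kit 115 and 64.4, Il1rl1 48.5 and 14.9, and Hdc 47.3 and 38.2. Ms4a2 averaged 321 and 369, Fcer1a 107 and 110, Cpa3 17.5 and 20.7, and Fcer1g 31.8 and 30.7. The mitochondrial share of reads was 3.34% to 3.53% in control and 3.91% to 4.14% in DHC libraries. The part of these shifts in the results below was not tested, and in such bulk samples fewer cells of a type and less RNA per cell cannot be told apart.

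Promoter sequences are shown for Hdac1, Hdac2, Hdac5 and Hdac7, the members whose calls the results turn on. They come from RefSeq on the build GRCr8, in which all 10 members were found by symbol, and run 5′ to 3′ on the gene's strand from 250 bases before to 50 bases after the annotated start. Capitals mark every match, on either strand, to the GC box, spelled GGGCGG, the box named CCAAT, the E-box, spelled CACGTG, the core of ETS factor sites, spelled CCGGAAG, the TATA box, spelled TATAAA, and the site of GATA factors, spelled AGATAA. Matches of the same pattern may overlap, as in the Hdac1 run of GC boxes. Hdac2 is on the plus strand of GRCr8 but on the minus strand of the table's build, Rnor_6.0, as the deposited rows give it.
Hdac1, chr5:147165338-147165637, minus strand: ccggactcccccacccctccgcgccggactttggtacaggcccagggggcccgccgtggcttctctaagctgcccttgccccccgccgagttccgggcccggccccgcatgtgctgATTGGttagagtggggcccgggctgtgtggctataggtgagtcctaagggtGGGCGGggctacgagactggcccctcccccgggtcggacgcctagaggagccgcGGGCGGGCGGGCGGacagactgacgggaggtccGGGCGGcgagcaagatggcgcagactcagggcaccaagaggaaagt
Hdac2, chr20:42102877-42103176, plus strand: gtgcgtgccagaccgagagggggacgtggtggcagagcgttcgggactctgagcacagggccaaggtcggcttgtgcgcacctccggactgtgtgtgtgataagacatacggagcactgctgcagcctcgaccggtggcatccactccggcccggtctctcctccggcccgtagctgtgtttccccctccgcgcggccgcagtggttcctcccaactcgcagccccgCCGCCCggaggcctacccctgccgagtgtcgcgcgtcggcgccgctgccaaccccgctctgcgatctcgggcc
Hdac5, chr10:87688005-87688304, minus strand: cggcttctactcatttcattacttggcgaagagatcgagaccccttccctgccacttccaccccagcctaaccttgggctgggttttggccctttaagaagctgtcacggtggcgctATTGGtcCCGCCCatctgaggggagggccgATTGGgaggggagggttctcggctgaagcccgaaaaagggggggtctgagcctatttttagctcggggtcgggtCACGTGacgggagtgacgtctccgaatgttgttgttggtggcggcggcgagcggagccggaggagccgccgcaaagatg
Hdac7, chr7:130840968-130841267, minus strand: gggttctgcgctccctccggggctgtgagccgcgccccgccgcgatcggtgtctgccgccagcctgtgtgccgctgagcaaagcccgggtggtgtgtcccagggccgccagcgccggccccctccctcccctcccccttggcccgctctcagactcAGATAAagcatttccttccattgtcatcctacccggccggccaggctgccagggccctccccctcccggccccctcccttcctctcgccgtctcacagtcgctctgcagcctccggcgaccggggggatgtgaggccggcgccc

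Of the promoters shown, Hdac1 had 5 GC box matches, some of them overlapping, Hdac2 and Hdac5 had 1 each and Hdac7 had none. Among the other members, matches numbered 3 in Hdac3, 3 in Hdac4, 4 in Hdac6 and 2 in Hdac10, with none in Hdac8 and Hdac9. GC boxes were thus present in members that were higher with DHC and in members that did not pass or were not tested. Over the family, 7 of 10 promoters had a GC box, against 33.1% of 33469 RefSeq promoters of the same length, and 5 of 10 had CCAAT, against 37.5%. The E-box was found in Hdac5 alone (6.42% of all promoters), the ETS pattern in Hdac10 alone (8.75%) and the GATA pattern in Hdac7 alone (11.6%), and TATAAA in none of the 10 (14.2%). The GC content of 8 promoters lay above the median of 51.7% of all promoters, with 71.0% in Hdac1, 70.0% in Hdac2, 60.7% in Hdac5 and 72.7% in Hdac7. The exceptions, Hdac8 with 41.3% and Hdac9 with 37.0%, were also among the 3 members with the lowest transcript levels. The third of these, Hdac10, had 59.0% and a lower level than Hdac8. These matches describe letters in a window and are not evidence of binding.

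Hdac1 accounted for most of the family's transcript level, and the order of the members was the same in both groups. As means in control libraries, it ran from Hdac1 (127 RPKM) over Hdac2 (16.2), Hdac5 (13.2), Hdac6 (9.91), Hdac3 (8.32), Hdac4 (7.24), Hdac7 (4.91), Hdac8 (1.16) and Hdac10 (0.147) to Hdac9 (0.0113).  Neighbours in it had separate values over the 3 libraries, except that Hdac3 overlapped Hdac4 in control and Hdac6 in DHC libraries. Hdac1 made up 67.6% ± 0.566 of the summed RPKM of the 10 genes in control and 66.9% ± 0.815 in DHC libraries (SD, n = 3). The sum itself was 189.8, 189.5 and 185.8 RPKM in control and 225.2, 222.4 and 223.3 in DHC libraries, 1.19-fold higher with DHC. By class the ratio was 1.21 for class I, 1.10 for class IIa and 1.09 for class IIb. Only the class I sums were separate between the groups. Those of class IIa ran from 23.8 to 26.8 RPKM in control and from 26.4 to 29.6 in DHC libraries. Those of class IIb ran from 9.75 to 10.6 and from 10.1 to 11.6, so both overlapped. All of these sums use the deposited RPKM, without other scaling.

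**Figure D1:**
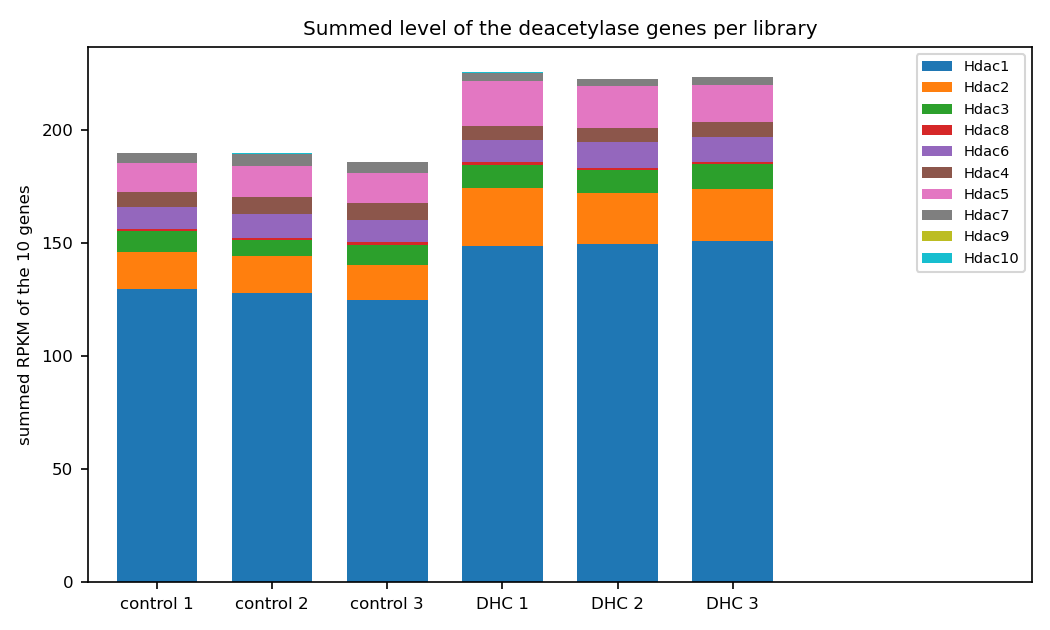
Summed RPKM of the 10 deacetylase genes in each of the 6 libraries, stacked by gene on an axis that starts at 0. Hdac1 forms the largest block in every library, and all 3 DHC bars, between 222.4 and 225.2 RPKM, stand above the control bars, between 185.8 and 189.8.

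Of the 10 members 8 had a mean of at least 1 RPKM over the 6 libraries and were tested, in a limma fit of all 10667 such genes on log2(RPKM + 1) with Benjamini-Hochberg adjustment. With DHC, Hdac1, Hdac2, Hdac3 and Hdac5 were higher and Hdac7 was lower at an adjusted p below 0.05, and Hdac4, Hdac6 and Hdac8 did not pass. The background is large in this comparison: 34.5% of all genes tested passed, 18.4% as higher and 16.1% as lower. Of the calls 53.4% were higher, against 43.7% with trimmed-mean and 42.7% with median-of-ratios scaling. The median difference of the 8 tested members was 0.17 on the log2 scale, against 0.05 for all genes tested. The values of the 2 groups were separate in 6 of the 8, and in 49.7% of all genes tested. With so few members these counts describe the family only. All 8 differences lay between −0.41 and 0.51, and the median absolute difference of all genes tested was 0.19. By absolute difference among all genes tested, Hdac2 stood at percentile 87.7, Hdac5 at 81.6 and Hdac7 at 81.5. Hdac3 stood at 67.2, Hdac1 at 58.5, Hdac4 at 35.9, Hdac6 at 31.8 and Hdac8 at 14.1.

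**Figure D2:**
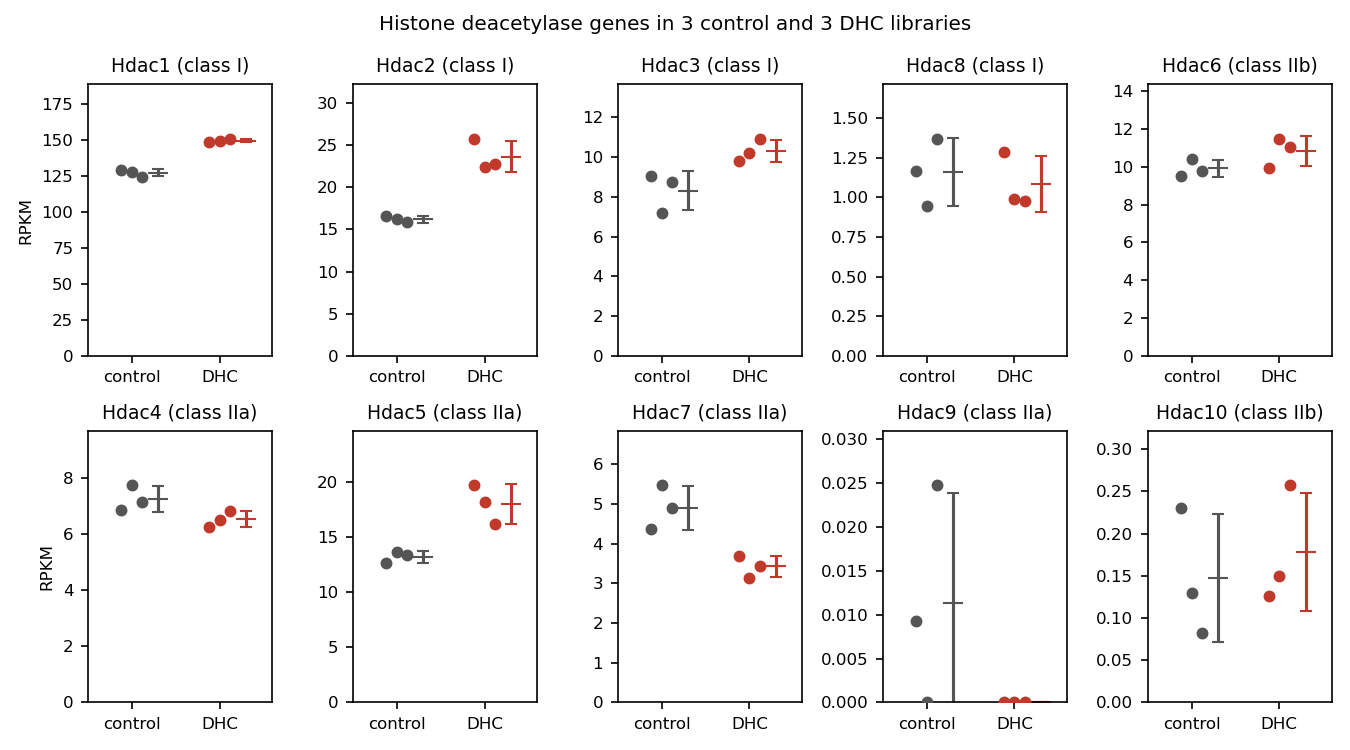
RPKM of each of the 10 genes, one panel per gene with its own axis from 0. Points are single libraries (replicates 1 to 3 from left to right) and bars the mean ± SD of 3. The DHC points of Hdac1, Hdac2, Hdac3 and Hdac5 lie above all control points, those of Hdac4 and Hdac7 lie below, and those of Hdac6, Hdac8 and Hdac10 mix with them.

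Among the class I genes, Hdac2 showed the largest change of the tested family in the fit on all 6 libraries. The log2 difference of Hdac7 was slightly larger in size without DHC replicate 1 (−0.457, against 0.455 for Hdac2). The same held without both libraries numbered 1 (−0.525 against 0.472). Hdac2, which pairs with Hdac1 in the NuRD, Sin3 and CoREST complexes, lies on chromosome 20, 43084870 to 43108198, of the build Rnor_6.0. It stood at 16.6, 16.2 and 15.8 RPKM in control and at 25.7, 22.4 and 22.8 RPKM in DHC libraries. All 3 DHC values were higher than every control value, and the first DHC library was the highest. The means differed 1.46-fold (log2 difference 0.51 ± 0.07, SE, limma adjusted p = 0.0011), from 3309 reads over the control and 4637 over the DHC libraries.

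Hdac1, the most abundant member, lies on chromosome 5, 147716664 to 147743723. Its values were 129, 128 and 125 RPKM in control and 148.7, 149.4 and 151.0 RPKM in DHC libraries. The groups were far apart for their small spread, although the change was only 1.18-fold (log2 difference 0.23 ± 0.04, limma adjusted p = 0.00315). Under scaling by trimmed means or by median ratios, which lower all DHC values slightly, Hdac1 and Hdac2 remained higher. RefSeq on GRCr8 lists 18 pseudogenes of Hdac1 and 1 of Hdac2, and the intronless paralog Hdac1l has its own row, with 0.770 ± 0.0888 RPKM in control and 1.19 ± 0.349 in DHC libraries, below the filter. The sources used here do not say how reads matching several copies were counted, and the values of these 2 genes are uncertain to that extent.

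Hdac3, the catalytic subunit of the NCoR complex (chromosome 18, 31073058 to 31094303), was at 9.04, 7.18 and 8.73 RPKM in control and at 9.81, 10.2 and 10.9 RPKM in DHC libraries. The values did not overlap, but the gap was small beside the spread of the control libraries, of which the second was low. The rise of 1.24-fold lay just past the threshold (log2 difference 0.28 ± 0.09, limma adjusted p = 0.0495). It no longer passed with trimmed-mean (0.0835) or median-ratio scaling (0.0863), with no filter on low values (0.1), or without control replicate 2 (0.127) or 3 (0.0705) or DHC replicate 1 (0.0655), 2 (0.112) or 3 (0.139). Hdac8, which deacetylates the cohesin subunit SMC3 (chromosome X, 72163777 to 72370044), had only 54 to 92 reads per library. It was at 1.17, 0.945 and 1.37 RPKM in control and 1.29, 0.992 and 0.976 RPKM in DHC libraries, and the groups overlapped. Its difference of −0.05 had a 95% interval from −0.36 to 0.26 (limma adjusted p = 0.799). The interval is no limit of detection, and the log2(RPKM + 1) scale understates changes of a gene this low. The SE was 0.13, against 0.25 with limma-voom on recovered reads. The sign of the difference turned (0.019) without control replicate 3.

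The class IIa genes diverged. Hdac5 (chromosome 10, 90140183 to 90151042), a repressor partner of MEF2, was at 12.6, 13.6 and 13.4 RPKM in control and at 19.7, 18.1 and 16.1 RPKM in DHC libraries. Its DHC values were more spread than its control values and lay above all of them. It rose 1.36-fold (log2 difference 0.42 ± 0.08, limma adjusted p = 0.00626). Hdac7, known for roles in thymocytes and in blood vessels (chromosome 7, 139281187 to 139318455), was at 4.36, 5.47 and 4.90 RPKM in control and at 3.69, 3.14 and 3.44 RPKM in DHC libraries. The groups did not overlap, and the second control library was the highest while the second DHC library was the lowest. Hdac7 fell 1.43-fold (log2 difference −0.41 ± 0.10, adjusted p = 0.0169), a call that ended without control replicate 2 (0.0606) or DHC replicate 2 (0.0624).

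Hdac4 (chromosome 9, 99057089 to 99299715), the best-known class IIa enzyme of muscle and bone, was at 6.85, 7.73 and 7.14 RPKM in control and at 6.25, 6.49 and 6.82 RPKM in DHC libraries. The groups were separate by a narrow margin, and the difference did not pass (log2 difference −0.13 ± 0.08, 95% interval −0.31 to 0.04, limma adjusted p = 0.214). Hdac9 (chromosome 6, 53488883 to 54059119) was close to absent. Its reads numbered 2, 0 and 6 in control libraries. In all 3 DHC libraries the number was 0, which still allows up to 3 reads per library, and no fold change is given. With no filter on low values its adjusted p was 0.647.

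Ratios of 2 members within a library do not depend on scaling between libraries. Of the 3 pairs given here, Hdac5 and Hdac7 passed in opposite directions, Hdac2 and Hdac1 were both higher, and Hdac4 did not pass. The ratio of Hdac5 to Hdac7 RPKM was 2.89, 2.49 and 2.73 in control and 5.34, 5.77 and 4.69 in DHC libraries. Hdac5 to Hdac4 went from 1.84, 1.76 and 1.87 to 3.15, 2.79 and 2.37. Hdac2 to Hdac1 was 0.129, 0.127 and 0.127 in control and 0.173, 0.150 and 0.151 in DHC libraries, with the first DHC library highest. None of the 3 ratios computed overlapped between the groups. Each had an exact two-sided permutation p of 0.1 (0.1 also when adjusted over the 3), the smallest that 3 against 3 can give. The pairs were chosen with the changes known. For Hdac5 to Hdac7 and Hdac5 to Hdac4 the separation and its p were fixed in advance. Hdac5 lay above, and Hdac7 and Hdac4 below, all control values in every DHC library, so these ratios add no evidence.

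**Figure D3:**
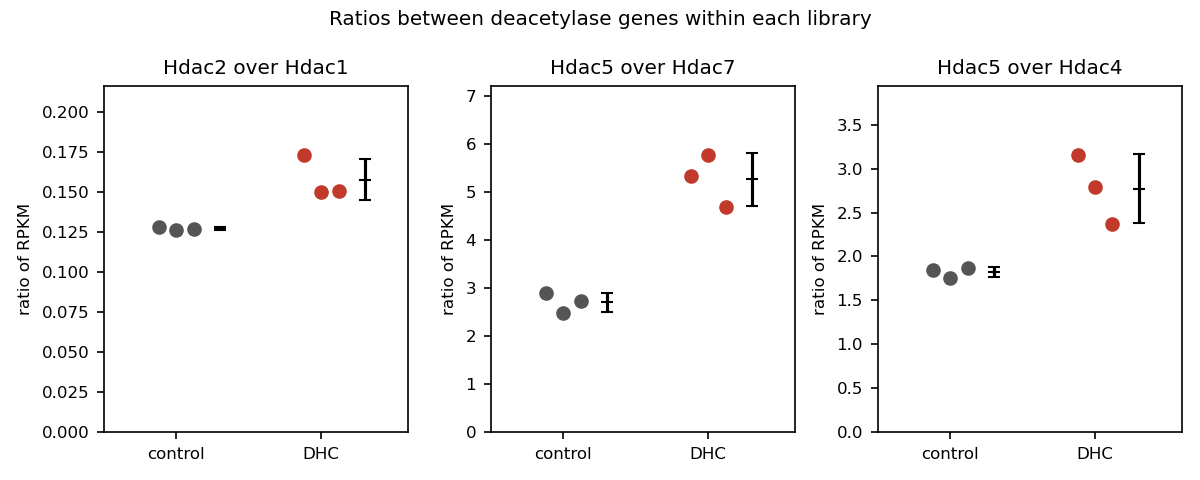
Ratio of RPKM of 2 deacetylase genes within each library, in 3 panels with axes from 0. Points are single libraries and bars the mean ± SD of 3. The Hdac5 to Hdac7 ratio lies between 2.49 and 2.89 in control and between 4.69 and 5.77 in DHC libraries.

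Neither class IIb gene passed the test. Hdac6 (chromosome X, 15396895 to 15417146) was at 9.52, 10.4 and 9.77 RPKM in control and at 9.96, 11.5 and 11.1 RPKM in DHC libraries. The first DHC library fell within the control range, and the difference was 0.12 ± 0.07 (95% interval −0.06 to 0.29, limma adjusted p = 0.259). Hdac10 (chromosome 7, 130102347 to 130107437) had between 6 and 15 reads in control and between 8 and 16 in DHC libraries. That is 0.147 ± 0.0757 and 0.178 ± 0.0697 RPKM, with overlapping groups and an adjusted p of 0.745 when no filter was applied. Within the spans of the 10 members the table has no exon of another gene, so overlap between genes of the table does not enter their values.

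**Figure D4:**
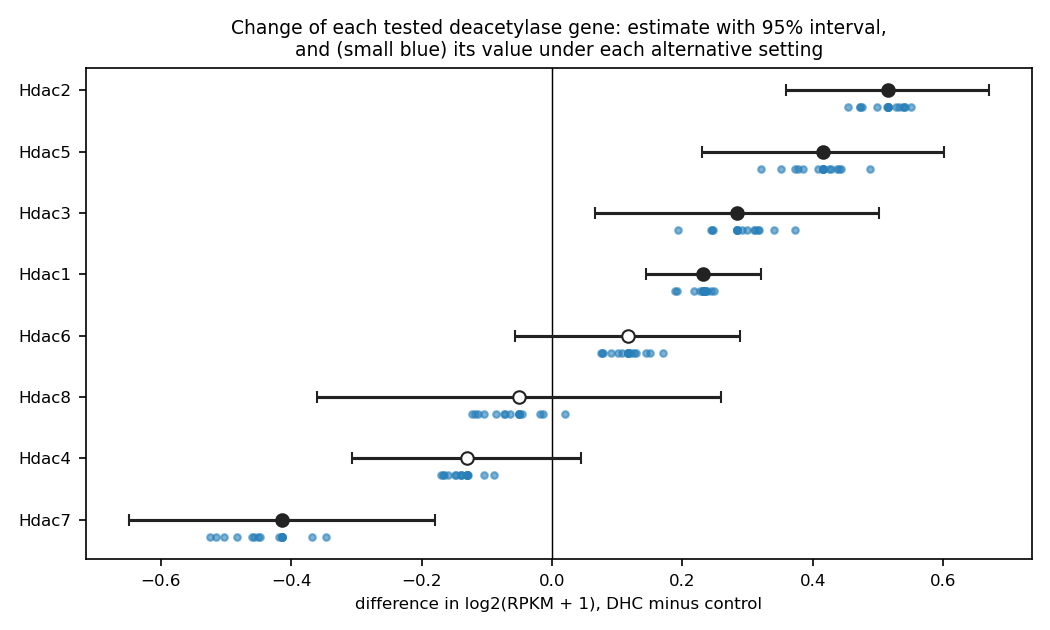
Difference in log2(RPKM + 1), DHC minus control, for the 8 tested genes. Large circles with bars are the estimates with 95% intervals, filled where the adjusted p was below 0.05, and small blue points below each give the estimate under every alternative setting. Hdac2, at 0.51, and Hdac7, at −0.41, are the ends of the range, and only the blue points of Hdac8 fall on both sides of 0.

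Genes were also compared by Pearson correlation of log2(RPKM + 1) over the 6 libraries, leaving out symbols that are only identifiers or dates. The genes most like Hdac2 were Fubp1 (r = 0.997), Asun (0.996) and Polr2m (0.996). Those most like Hdac7 were Uspl1 (0.997), Prr3 (0.994) and Bloc1s4 (0.991). These values describe 6 points in 2 groups, and the points of a group share their treatment. Of the genes named here, Prr3 alone did not pass between the groups (limma adjusted p = 0.12).

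The partners of the class I enzymes changed in both directions. The counts of this and the following lists stand against the 34.5% of all genes tested that passed (18.4% higher and 16.1% lower, or 1514 genes higher and 1951 lower with trimmed-mean scaling), and nothing particular to a list is read from them. Over 4 lists of corepressor complex genes, 42 of 44 listed symbols were tested, of which 5 were higher and 11 lower (median log2 difference −0.08, and 0.05 for all genes). Of 4 genes of the NCoR complex, that of Hdac3, 3 were lower and none higher (median −0.26), while Hdac3 was higher in that fit. Tbl1x, a scaffold subunit, was at 14.1, 13.1 and 13.1 RPKM in control and 9.65, 9.41 and 8.34 RPKM in DHC libraries, a 1.47-fold fall without overlap (limma adjusted p = 0.00182). Tbl1xr1 fell 1.24-fold and Ncor1 1.17-fold. Both calls ended without DHC replicate 2 (0.0531 and 0.0830) or DHC replicate 3 (0.0526 and 0.0670), where 1 gene of the list passed. Gps2, another subunit, had a difference of −0.11 and did not pass (0.248).

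Of the 12 NuRD genes, which join Hdac1 and Hdac2 to a chromatin remodeller, 4 were lower and 1 higher (median −0.06). The remodelling ATPase gene Chd4 was at 281, 289 and 295 RPKM in control and 192, 184 and 182 RPKM in DHC libraries. Its 1.55-fold fall separated the groups widely (log2 difference −0.63 ± 0.04, limma adjusted p = 4.79e-05). Mta3 fell 1.45-fold (0.00416) and Chd3 1.19-fold (0.00433). Gatad2b fell 1.14-fold (0.0411), but the call ended without control replicate 1, 2 or 3 or DHC replicate 2 or 3 (0.0717 to 0.134) or with no filter (0.0594). Without control replicate 2 or 3 or DHC replicate 2 or 3, 3 NuRD genes passed instead of 5. The histone-binding subunit genes Rbbp4 and Rbbp7, shared with Sin3, did not pass.

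Of 14 Sin3 genes 3 were higher and 2 lower (median 0.04). Brms1l was at 9.95, 9.41 and 8.37 RPKM in control and at 18.3, 17.2 and 15.8 RPKM in DHC libraries, 1.85-fold higher (limma adjusted p = 0.000333). Sap30l, a paralog of the subunit gene Sap30, rose 1.43-fold (0.00384). Arid4b fell 1.27-fold (0.0091) and Ing2 1.28-fold (0.0203), the latter call ending without control replicate 2 or DHC replicate 2 or 3 (0.0662 to 0.0714). The scaffold genes Sin3a and Sin3b did not pass (0.819 and 0.66). The number of Sin3 genes that passed was 3 instead of 5 without control replicate 2 or DHC replicate 2.

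Of 12 tested CoREST and MiDAC genes 1 was higher and 2 lower (median −0.12), and under scaling by trimmed means or median ratios 5 passed instead of 3. Rcor1, the CoREST scaffold, was at 51.8, 48.9 and 49.6 RPKM in control and at 36.3, 36.1 and 35.2 RPKM in DHC libraries, a 1.40-fold fall (limma adjusted p = 0.000285). Elmsan1, the MiDAC scaffold, rose 1.42-fold (0.00356). Phf21a fell 1.21-fold (0.0335), a call that ended without control replicate 1 or 2 or DHC replicate 2 or 3 (0.0866 to 0.111) or with no filter (0.063). Kdm1a, the lysine demethylase of CoREST, did not pass (0.239).

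**Figure D5:**
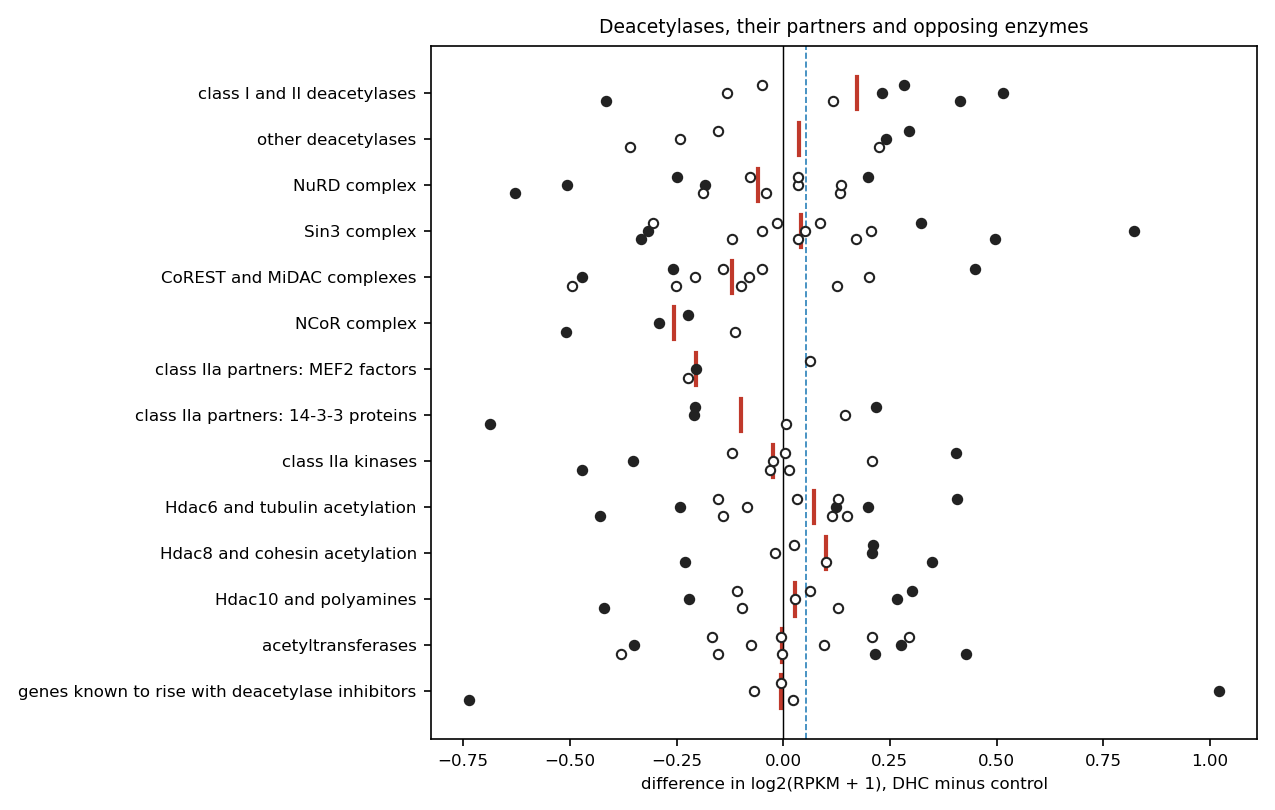
Difference in log2(RPKM + 1), DHC minus control, of each tested gene in the deacetylase family and in 13 lists of related genes. Filled points had an adjusted p below 0.05, red bars are list medians and the dashed blue line is the median of all genes tested (0.05). All 4 points of the NCoR list lie below 0, and the other complexes have points on both sides.

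For the class IIa enzymes, Mef2d was the MEF2 gene with the highest level. It was at 38.7 ± 1.96 RPKM in control and 33.4 ± 1.13 in DHC libraries (limma adjusted p = 0.0253), a fall of 1.16-fold that did not pass without control replicate 1 or 2 or DHC replicate 2 or 3 (0.0568 to 0.0836). Mef2a (0.105) and Mef2c (0.711) did not pass, and Mef2b lay below the filter. Mef2a passed without control replicate 2 (0.0449). Of 6 tested 14-3-3 genes 3 were lower and 1 higher. Ywhah was at 408, 394 and 424 RPKM in control and 249.6, 259 and 251 RPKM in DHC libraries, 1.61-fold lower and well separated (3.78e-05). Ywhaz and Ywhag fell 1.15-fold and 1.16-fold. Ywhae, the most abundant, rose 1.16-fold (0.015), a call that ended in 3 of the fits that leave out 1 library, those of the second control (0.0501), the second DHC (0.0605) and the third DHC library (0.0537).

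Among 9 tested kinase genes that act on class IIa enzymes, 2 were lower and 1 higher. Sik3, a salt-inducible kinase, fell 1.29-fold from 35.7 ± 0.553 to 27.7 ± 0.407 RPKM (limma adjusted p = 0.00107), and Camk2d, a calcium/calmodulin-dependent kinase, 1.53-fold from 4.09 ± 0.244 RPKM (0.00616). Mark3 rose 1.34-fold (0.00282). The genes of protein kinase D with a row were low: Prkd1 and Prkd3 lay below the filter, and Prkd2 was at 1.85 ± 0.284 and 1.87 ± 0.239 RPKM (0.943).

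Genes tied to Hdac6, Hdac8 and Hdac10 by their substrates were mixed. Of 12 genes of the Hdac6 and tubulin list 3 rose and 2 fell. Vcp, an ATPase that binds Hdac6, rose 1.33-fold (limma adjusted p = 0.00405). Tuba1a fell 1.35-fold (0.00858), whereas Tuba1b rose 1.15-fold (0.0202), which did not pass with trimmed-mean factors (0.0562), with median ratios (0.0613) or without DHC replicate 2 (0.0757) or 3 (0.0654). These tubulin genes are closely related, so reads could be split between them, which was not tested. Atat1, the tubulin acetyltransferase gene, did not pass (0.871). Sqstm1, an autophagy receptor gene, fell 1.18-fold. Under scaling by trimmed means or median ratios, or without DHC replicate 3, 3 genes of this list passed instead of 5.

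Of 7 cohesin acetylation genes 3 rose and 1 fell. Smc3, whose protein Hdac8 deacetylates, was at 126, 121 and 120.1 RPKM in control and 161, 153 and 155 RPKM in DHC libraries (1.28-fold, limma adjusted p = 0.000804), and its partner Smc1a rose 1.16-fold. Esco1, a cohesin acetyltransferase gene, rose 1.17-fold and Stag2 fell 1.18-fold. Without DHC replicate 2 or 3 neither of these passed (0.0672 and 0.0930 for Esco1, 0.0533 and 0.0507 for Stag2), which left 2 genes of the list. The Esco1 call also ended under both other scalings (0.0671 and 0.0742) and without control replicate 2 or 3 or DHC replicate 1 (0.0821 to 0.114). Of 9 polyamine genes 2 rose and 2 fell. Sat1, which acetylates polyamines, fell 1.34-fold from 591 ± 36.5 RPKM (0.00228) and Amd1 rose 1.27-fold (0.0128). Odc1, the entry enzyme, rose 1.21-fold and Paox fell 1.18-fold. The Odc1 call ended under both other scalings (0.0671 and 0.0687), with no filter (0.0688) and without control replicate 1 or 2 or DHC replicate 2 or 3 (0.085 to 0.109). The Paox call, at an adjusted p of 0.05, ended without control replicate 2 or 3 or any 1 DHC library (0.0765 to 0.143), and also with a lower or no filter, with limma-voom and with a robust variance (0.0507 to 0.0807). The number of polyamine genes that passed was 2 without control replicate 2 or DHC replicate 2 or 3.

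Of 13 acetyltransferase genes, whose products oppose deacetylases, 3 rose, 1 fell and 9 did not pass (median −0.00), beside 34.5% of all genes tested that passed. Kat6b was at 9.01, 9.37 and 9.20 RPKM in control and 12.5, 12.7 and 12.9 RPKM in DHC libraries, 1.38-fold higher with little spread (limma adjusted p = 0.00127). Hat1, which acetylates newly made histones, rose 1.22-fold (0.0053) and Taf1 1.17-fold (0.024). Kat5 fell 1.29-fold (0.017). The Taf1 call ended without control replicate 2 or 3 or DHC replicate 1 or 3 (0.0607 to 0.0774), the Kat5 call without control replicate 2 (0.0598) or 3 (0.0505), and without either of these control libraries 2 genes of the list passed. Ep300 and Crebbp, the widely used coactivators, did not pass (0.283 and 0.976), nor did Kat2a (0.0538), Kat2b (0.0671), Kat6a (0.954), Kat7 (0.0979), Kat8 (0.263), Ncoa1 (0.615) or Ncoa3 (0.133). Kat8 passed without DHC replicate 1 (0.0187).

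Of the 6 tested sirtuins 2 were higher, Sirt7 (1.23-fold, limma adjusted p = 0.015, but 0.0613 without DHC replicate 2) and Sirt1 (1.2-fold, 0.0446, a call that ended under both other scalings, with no filter, with 0.0731 to 0.0798, and without control replicate 2 or 3 or any 1 DHC library, with 0.0902 to 0.12), and 1 passed without control replicate 2 or 3 or DHC replicate 2 or 3. Sirt2 (0.263), Sirt3 (0.199), Sirt5 (0.0816) and Sirt6 (0.0613) did not pass, although Sirt2 did without DHC replicate 2 (0.0458). Sirt5, lower by 0.36 on the log2 scale, passed with limma-voom (0.0363), without DHC replicate 1 (0.0216) and without both libraries numbered 1 (0.0488). Sirt6, lower by 0.24, passed with trimmed-mean (0.0439) and median-of-ratios scaling (0.0427), without control replicate 1 (0.0215) and without both libraries numbered 1 (0.0363). Hdac11, the class IV gene, was not analysed here. Among 5 tested genes known to rise when deacetylases are inhibited, Hist2h2be, a histone H2B gene, rose 2.22-fold (0.00211) and Cdkn1a, which encodes the cell cycle inhibitor p21, fell 1.69-fold from 50.2 ± 1.22 to 29.7 ± 0.785 RPKM (4.09e-05). Gsn, Txnip and Tubb3 did not pass.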

How the data were processed

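RNA of 3 control and 3 DHC-treated RBL-2H3 samples was sequenced after Trizol extraction, per the labels' protocols. The submitters' processing notes name Trimmomatic 0.36 and Subread 1.5.1, with its featureCounts, beside edgeR 3.12.1 and Rnor_6.0. Aligner, annotation release and use of strand: not given in the sources used here. The authors deposited RPKM values for 18286 genes, with exon coordinates and summed exon length. Times length, the deposited RPKM values are whole multiples of 1 step per library for 100% of values within 0.01 read, from which reads were recovered. RPKM is scaled by the library total only, so a change in a few abundant genes moves all others.

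Because the unit is RPKM, a count test was not used, and limma 3.58.1 (R 4.3.3) with a trended variance was run on log2(RPKM + 1), with group as the only term, where the mean over the 6 libraries reached 1 RPKM. This scale understates changes of low genes, and N-fold values are ratios of group means. The fit was also run on simulated reads. Few genes were changed there, equally in both directions, so that run does not test the choice of scaling. Members, lists and tests were chosen with earlier results of these data known. Named genes were the 10 members, up to 4 called genes per list by p, and all tested sirtuins, MEF2 factors and acetyltransferases. Also named were the 3 genes most like the member with the lowest p in each direction. Symbols that are only identifiers or dates were left out there. Further genes of a list were named after their values were seen. In the lists, 1 gene is not reported here and is left out of their counts. Replicates differed by more than sampling noise (chi-square per degree of freedom 4.52 to 15.9). Alternatives were other pseudocounts, filters, scalings, limma-voom, robust variance, a replicate block, an adjusted p of 0.01 and leaving out libraries.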

Additional observations from a re-analysis of the deposited data

How the results depend on the processing

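Hdac1, Hdac2 and Hdac5 kept their direction and their call in all 17 alternative fits, and Hdac4 and Hdac6 kept their direction and passed in none. Hdac3 kept its direction but passed in only 7 of 17. Its log2 difference was 0.28 in the fits that no longer passed with a mean of at least 0.5 RPKM or with no filter, 0.25 with trimmed-mean scaling, 0.24 with median-of-ratios scaling, 0.37 without both libraries numbered 1, and 0.19 to 0.34 when each library was left out in turn. Hdac7 ranged from −0.48 to −0.35 and Hdac8 from −0.12 to 0.019 over those 6 fits, and with a mean of at least 5 RPKM neither was tested. Mef2c was at −0.0060 and Kat6a at 0.0011 without both libraries numbered 1. Crebbp ranged from −0.040 to 0.021 and Kat6a from −0.042 to 0.041 when each library was left out. For the cause of these changes no test was made.

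Over all genes, the higher calls numbered 1968 and the lower 1717, and at an adjusted p below 0.01 there were 873 and 1076. The higher calls ranged from 1195 (without DHC replicate 2) to 1755 when each library was left out. With trimmed-mean scaling 1514 were higher and 1951 lower (43.7% higher instead of 53.4%), with median-of-ratios scaling 1471 and 1970 (42.7%), and the median difference of all genes was 0.02 and 0.01.

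Members of the lists that passed, in number, were as follows. With no filter they were 1 of the other deacetylases, 3 of NuRD and 2 of the polyamine list, where the report has 2, 5 and 4. With trimmed-mean and with median-of-ratios scaling they were 5 of CoREST and MiDAC and 3 of the Hdac6 list. With limma-voom they were 5 of CoREST and MiDAC and 2 MEF2 factors. Without both libraries numbered 1 they were 4 other deacetylases and 0 MEF2 factors. When each library was left out, the ranges were 1 to 3 for the other deacetylases, 3 to 5 for NuRD, 3 to 6 for Sin3, 1 to 3 for NCoR, 0 to 1 for MEF2 factors, 3 to 5 for the Hdac6 list, 2 to 4 for the cohesin list, 2 to 3 for the polyamine list and 2 to 4 for acetyltransferases.

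Replicate numbers in the titles are shared by both groups. Same-numbered libraries deviated together only in part (correlations of deviations 0.23, −0.05 and 0.08 for numbers 1, 2 and 3). What a shared number stands for is not given in the labels, and whether it marks a common culture or run was not tested. With a replicate block 2426 genes were higher and 1907 lower. With this block 4 other deacetylases, 8 NuRD genes and 2 MEF2 factors passed, and no call of an Hdac gene changed. Sirt5 (0.0311), Sirt6 (0.0367) and Mef2a (0.0198) passed with this block. The libraries numbered 1 correlated best with each other, and those numbered 2 and 3 did not. Depth limits Hdac8, Hdac9 and Hdac10, with at most 92, 6 and 16 reads in a library. Of 1066 values of 63 other named genes under the alternatives, 79 lost the call, 17 gained it and 7 changed sign.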
